A study of Mus musculus with 6 samples.

Results

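Chaperones of the heat shock response in the cytosol were represented by 10 mouse genes, chosen by symbol: Hsf1, Hspa1a, Hspa1b, Hspa4, Hsp90aa1, Hsp90ab1, Hsph1, Dnaja1, Dnajb1 and Hspb1. A member was measured where a probe set was annotated to that gene alone, and of several such probe sets the one with the widest interquartile range over the 6 microarrays stood for the gene. This gave 7 of the 10 members among 19938 genes: the inducible HSP70 gene Hspa1a, the HSP110 genes Hspa4 and Hsph1, the HSP90 gene Hsp90aa1, the J-domain genes Dnaja1 and Dnajb1, and the small heat shock gene Hspb1. Hspa1b, a near-identical neighbor of Hspa1a, had only a probe set shared with it. Hsf1 and Hsp90ab1 were not analysed here.

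The cytosolic heat shock chaperones keep proteins folded and refold those that stress has damaged. HSP70 proteins bind unfolded stretches of a client, J-domain proteins (DNAJ) deliver clients and trigger the hydrolysis of ATP, and HSP110 proteins release ADP so that the cycle can start again. Clients such as kinases and steroid receptors are passed on to HSP90, while small heat shock proteins hold unfolded proteins without ATP. Under heat or proteotoxic stress the transcription factor HSF1 binds heat shock elements in the promoters of the heat-inducible genes among these and raises their transcription.

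The chaperone genes were measured in RAW264.7 cells, an established macrophage-like line of the mouse. Cells received either a mimic of miR-342-3p, which is a double-stranded RNA made to work like the natural microRNA, or a negative control mimic with a scrambled sequence, and RNA was taken 18 h later (3 arrays per group). Both groups were transfected, so untransfected cells are not part of the comparison. Values are on the log2 scale after RMA, a method that subtracts background, adjusts the arrays towards one distribution and combines the probes into 1 value per probe set, so a difference of 1 is a doubling. The medians of the deposited arrays still differed, between 6.80 and 6.95. With 3 arrays a group, the number of arrays sets the precision. RNA came from whole cultures, in which fewer cells with a transcript and less of it per cell cannot be told apart.

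The transfected microRNA is shown with its seed (bases 2 to 8, in capitals), the part that pairs with target mRNAs. Below it stand stretches of the promoters of members, with matches to 2 units of the heat shock element in capitals. These are matches of letters only, and binding of HSF1 to them was not measured. All sequences are from RefSeq (GRCm38.p6), 5′ to 3′ on the strand of the gene.
miR-342-3p (chr12:108658680-108658702, plus strand): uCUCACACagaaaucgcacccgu
Hspa1a (chr17:34972241-34972272, minus strand): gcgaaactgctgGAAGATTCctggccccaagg
Hspa1b (chr17:34959323-34959354, minus strand): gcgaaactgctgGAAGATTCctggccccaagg
Hspb1 (chr5:135887790-135887821, plus strand): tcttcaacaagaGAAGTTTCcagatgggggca
Hspb1 (chr5:135887810-135887841, plus strand): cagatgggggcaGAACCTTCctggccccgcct
Dnaja1 (chr4:40722332-40722363, plus strand): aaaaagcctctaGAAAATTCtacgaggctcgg
Hsph1 (chr5:149636350-149636381, minus strand): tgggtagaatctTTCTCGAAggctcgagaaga

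A heat shock element is made of GAA units in alternating orientation. The motifs searched were GAANNTTC and TTCNNGAA (2 units each), which are their own reverse complements, so 1 strand covers both. The windows ran from 250 bases before to 50 bases after each annotated start. Dnaja1 and Hsph1 had several annotated starts. Distances for a gene are from the start of its first listed window with a match, and would differ from another start. The other windows of Dnaja1 had no match. The 7 members with a window were Hspa1a, Hspa1b, Hspa4, Hsph1, Dnaja1, Dnajb1 and Hspb1, so Hsp90aa1, the member with the largest difference, was not searched. At least 1 match was found in 5 of these 7 (71.4%), against 17.0% of 27025 genes. The matches of Hspa1a and Hspa1b lie 104 to 97 bases before the start, in stretches with the same letters. Those of Hspb1 lie 117 to 110 and 97 to 90 bases before it, that of Dnaja1 124 to 117 and that of Hsph1 33 to 26. Hsph1 was also the only member with 3 units in a row, a longer motif that holds both of the shorter ones, at bases 37 to 49 after the start. Of all genes, 0.662% had this longer motif. Hspa4 and Dnajb1 had no match, which says only that these letters are not in these windows.

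No member passed the test, in either direction, at the FDR threshold of 0.1 (limma, Benjamini and Hochberg adjustment over all 19938 genes). Over all genes 11.6% were called, 4.14% higher and 7.42% lower in miR-342-3p-transfected cells. Before adjustment, Hsp90aa1 and Hspb1 were the 2 members with a p under 0.05, a level reached by 25.5% of all genes. The difference, miR-342-3p minus control on the log2 scale, was negative for 4 members (Hsp90aa1, Dnaja1, Hspa4 and Hsph1) and positive for 3 (Dnajb1, Hspa1a and Hspb1). The median over the 7 was -0.16, against 0.069 over all genes. The groups did not overlap in 4 of the 7 members, 3 below and 1 above the controls, where 36.9% of all genes showed no overlap (15.5% below and 21.4% above).

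**Figure D1:**
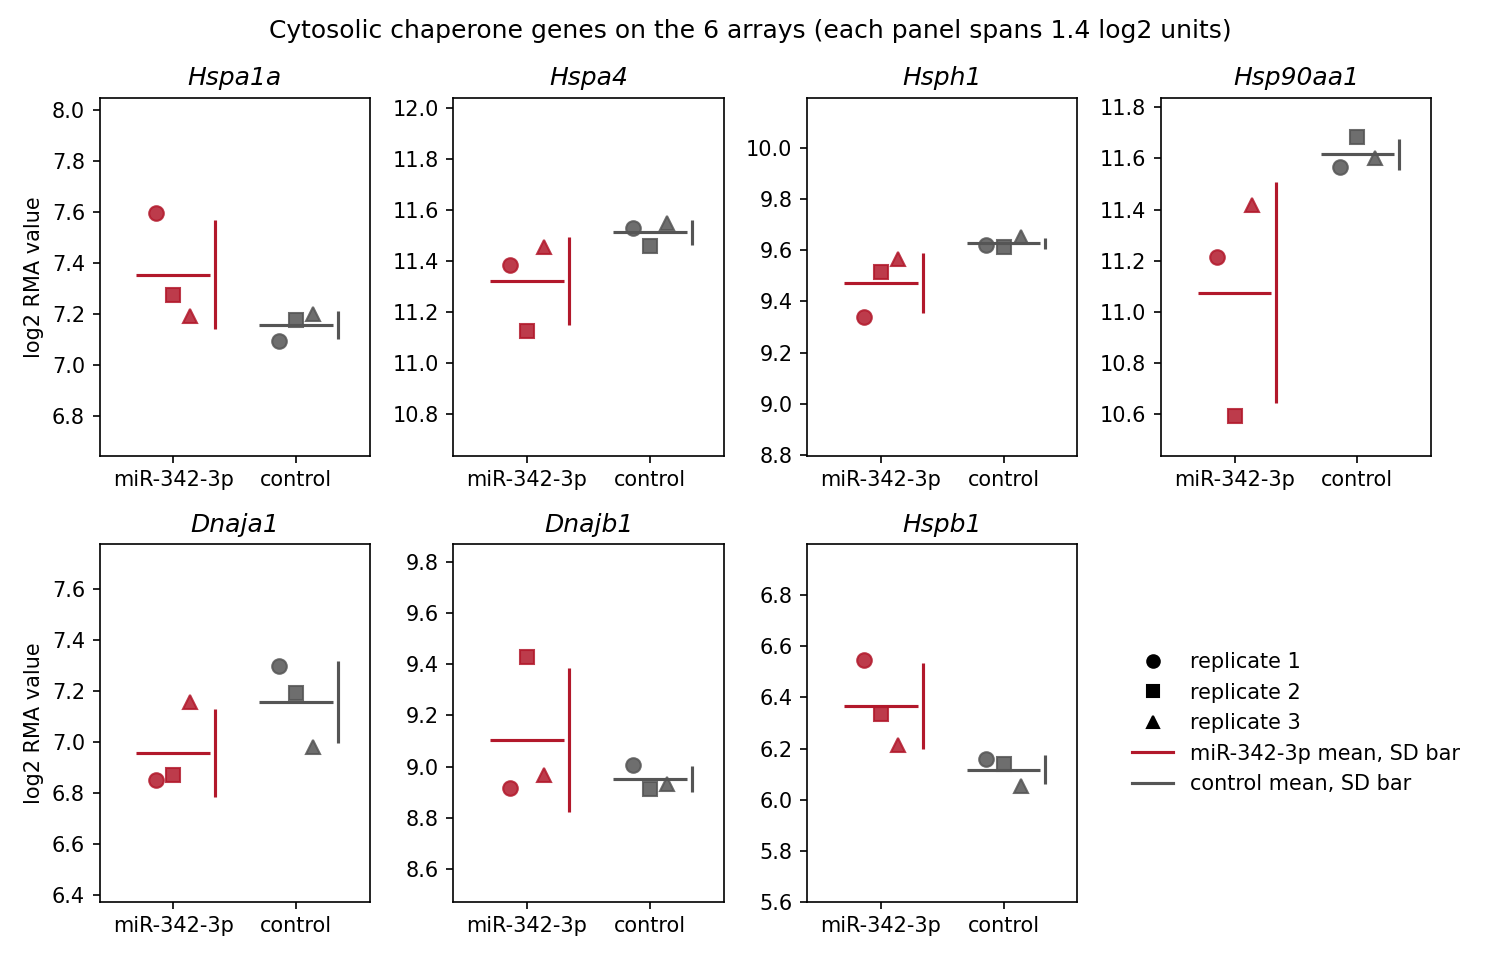
Log2 RMA values of the 7 measured members on each array, with miR-342-3p arrays in red at the left of each panel and control arrays in grey at the right; symbols give the replicate, horizontal lines the mean and vertical lines the SD (n = 3 each). The control arrays have a smaller SD than the miR-342-3p arrays for every member, but for Dnaja1 the SDs are close, at 0.17 (miR-342-3p) and 0.16 (control). MiR-342-3p replicate 2 stands low for Hsp90aa1 (10.59) and high for Dnajb1 (9.43), and replicate 1 stands high for Hspa1a (7.60) and Hspb1 (6.55).

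Hsp90aa1, which encodes the stress-inducible HSP90 of the cytosol, had the largest difference of the members. Its log2 values were 11.22, 10.59 and 11.42 in miR-342-3p replicates 1, 2 and 3, against 11.57, 11.68 and 11.60 in the control replicates. All miR-342-3p arrays were thus below all control arrays, with replicate 2 far below the other two. The means were 11.08 ± 0.43 and 11.62 ± 0.060 (SD, n = 3 each), and the fitted difference was -0.54, or 1.46-fold lower (standard error 0.18, 95% interval -0.96 to -0.13, FDR = 0.118). The gene was therefore close to the threshold without passing it. Of 18 alternatives, the gene passed in 5. Without miR-342-3p replicate 2 the difference was -0.30 and passed (FDR = 0.087), and without replicate 3 it was -0.71 (FDR = 0.036). Without replicate 1 it was -0.61 and did not pass (FDR = 0.169). The gene also passed after centering of each array on its median (-0.57, FDR = 0.085) and when genes below the median level were left out (FDR = 0.089). It did not pass with the probe set of the highest mean (-0.43, FDR = 0.172). Nor did it pass with quantile normalization repeated (-0.50, FDR = 0.136) or with the methods' t-test (FDR = 0.309). Without any 1 control array the FDR was between 0.273 and 0.291.

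Hsp90aa1 had 3 probe sets of its own. The other two gave differences of -0.43 and -0.39, and their miR-342-3p arrays lay below all control arrays as well. In all 3 the order of the miR-342-3p arrays was the same, with changes from the control mean between -1.03 and -0.80 in replicate 2, between -0.40 and -0.24 in replicate 1 and between -0.20 and -0.12 in replicate 3. They measure the same gene in the same RNA, so they are not independent of each other.

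Hspa4 and Hsph1 encode HSP110 proteins, the exchange factors of HSP70. Hspa4 measured 11.38, 11.13 and 11.45 in the miR-342-3p replicates and 11.53, 11.46 and 11.55 in the controls. The arrays did not overlap, but replicate 3 fell short of the lowest control by little, and replicate 2 was again the lowest. The difference was -0.19 (standard error 0.098, 95% interval -0.41 to 0.031, FDR = 0.246). Without replicate 2 it was -0.093. Hsph1, a heat-inducible gene and the member with 3 units in a row, measured 9.34, 9.51 and 9.56 in the miR-342-3p replicates and 9.62, 9.61 and 9.65 in the controls. Here too all miR-342-3p arrays were lower, with replicate 1 the lowest. The difference was -0.16 (standard error 0.083, 95% interval -0.34 to 0.032, FDR = 0.259) and was -0.089 without replicate 1.

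Hspa1a encodes the HSP70 that stressed cells induce. Its values were 7.60, 7.27 and 7.19 in the miR-342-3p replicates, against 7.09, 7.18 and 7.20 in the controls. Replicate 1 stood above all other arrays, and replicate 3 lay within the range of the controls. The difference was 0.20 (standard error 0.11, 95% interval -0.053 to 0.45, FDR = 0.279) and was 0.075 without replicate 1. The probe set shared by Hspa1a and Hspa1b measured 8.87, 8.71 and 8.62 in the miR-342-3p replicates and 8.67, 8.67 and 8.60 in the controls, so the groups overlapped there also. Its difference was 0.087 (95% interval -0.12 to 0.29, FDR = 0.557 in a fit of all 35556 probe sets). Since the genes are nearly alike, signal of one may be read on the probe set of the other.

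Hspb1, the gene of the small heat shock protein HSP25 of the mouse, was the member with the largest positive difference. It measured 6.55, 6.34 and 6.21 in the miR-342-3p replicates, against 6.16, 6.14 and 6.05 in the controls. The groups did not overlap, although replicate 3 exceeded the highest control only slightly. The difference was 0.25 (standard error 0.097, 95% interval 0.027 to 0.47, FDR = 0.158). A second probe set gave 0.22, with the same order of the arrays. Without miR-342-3p replicate 3 the difference was 0.32 and passed the threshold (FDR = 0.063), and without replicate 1 it was 0.16 (FDR = 0.242). Hspb1 was among the genes of low level, with a control mean of 6.12 against a median of 7.10 over all genes in the controls.

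Genes of low level had a positive median change on miR-342-3p replicate 1. Over the 9969 genes at or below the median level, the median change from the control mean was 0.23 in replicate 1, 0.036 in replicate 2 and 0.052 in replicate 3. The corresponding medians were -0.095, 0.036 and -0.020 for the genes above it. For 9 fibroblast and epithelial markers, which lie on both sides of the median level, the median change on replicate 1 was 0.32. For 7 lymphocyte markers, all below the median level, it was 0.24. Hspb1 had changes of 0.43, 0.22 and 0.097 in replicates 1, 2 and 3, and Hspa1a, which lies slightly above the median level, of 0.44, 0.12 and 0.033. Dnaja1 was the other member at or below the median level in the probe set used, while its second own probe set had a control mean of 10.52. In the probe set used it changed by -0.31, -0.29 and -1.93e-04, opposite in direction to the median of the genes at that level. With cyclic loess normalization, which brings arrays together at each level and was chosen after seeing the data, the differences were 0.16 for Hspb1 (FDR = 0.21) and 0.14 for Hspa1a (FDR = 0.363). The part of this shift in the values of both genes was not tested.

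Dnajb1 and Dnaja1 encode the main J-domain partners of cytosolic HSP70. Dnajb1, the heat-inducible one, measured 8.92, 9.43 and 8.97 in the miR-342-3p replicates and 9.01, 8.91 and 8.93 in the controls. Only replicate 2 lay outside the range of the controls. The difference of 0.15 (standard error 0.13, 95% interval -0.15 to 0.45, FDR = 0.457) was -0.010 without this array. Dnaja1, which is prenylated and takes part in the folding of HSP90 clients, measured 6.85, 6.87 and 7.16 in the miR-342-3p replicates and 7.30, 7.19 and 6.98 in the controls. The groups overlapped through miR-342-3p replicate 3 and control replicate 3. The difference was -0.20 (standard error 0.11, 95% interval -0.46 to 0.061, FDR = 0.291). It was -0.13 without control replicate 1, -0.30 without miR-342-3p replicate 3 and -0.078 with arrays weighted by their agreement.

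The probe sets of Dnaja1 did not all point one way. A second one of its own, with higher signal (10.21, 10.29 and 10.49 in the miR-342-3p replicates and 10.46, 10.56 and 10.53 in the controls), gave -0.19. Another is annotated to both Dnaja1 and the microRNA gene Mir207, measured 10.53, 10.14 and 10.17 in the miR-342-3p replicates and 10.02, 10.11 and 10.15 in the controls, and gave 0.19. This last one is outside the rule because it names more than 1 gene. None of the probe sets passed the threshold.

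**Figure D2:**
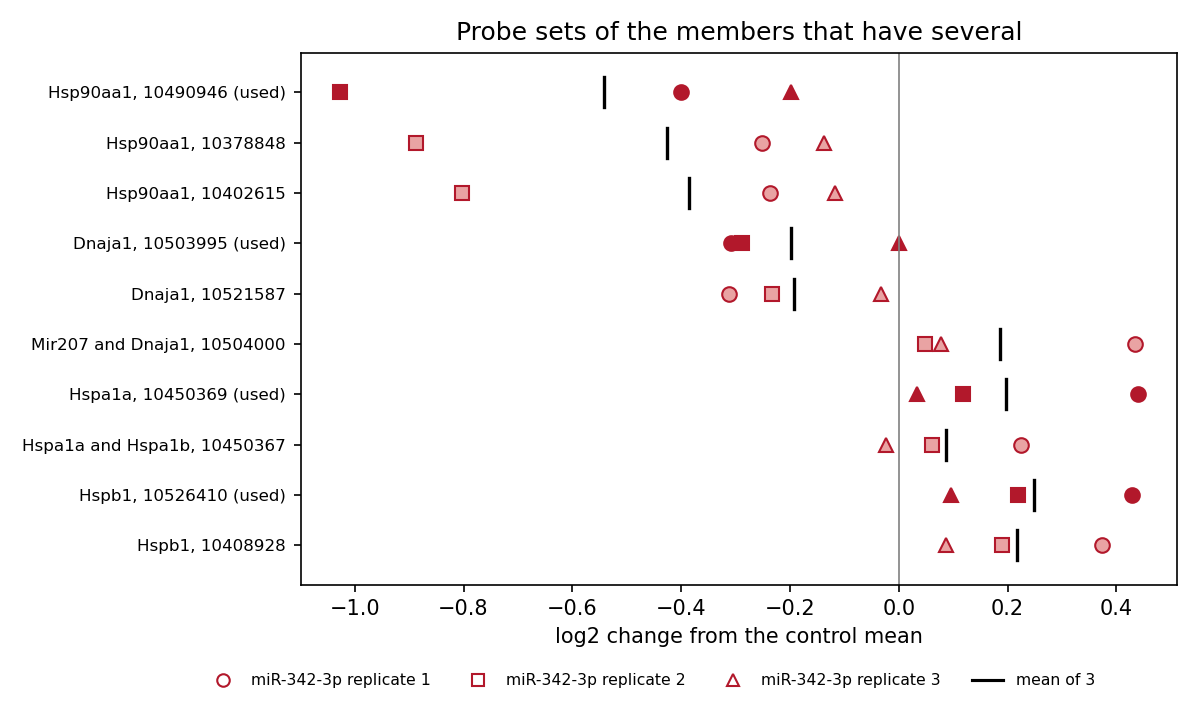
Log2 change from the control mean for each probe set of the members with several, with symbols for the 3 miR-342-3p replicates and their mean drawn as a black line; dark symbols mark the probe set used for the gene, and names joined by "and" mark probe sets shared by genes. The 3 probe sets of Hsp90aa1 keep one order of replicates, and the one shared by Mir207 and Dnaja1 lies at 0.19 where those of Dnaja1 alone lie at -0.20 and -0.19.

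Across the members the miR-342-3p array farthest from the controls was not always the same one. Replicate 2 was the farthest from the controls for Hsp90aa1, Hspa4 and Dnajb1. Replicate 1 was the farthest for Hspa1a, Hspb1, Hsph1 and Dnaja1. Replicate 3 had the smallest change for all 7 members. Within the members the median changes in replicates 1, 2 and 3 were -0.13, -0.12 and -1.93e-04. Over all genes they were 0.11, 0.036 and 0.025, so the smallest median change was in replicate 3 there too.

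**Figure D3:**
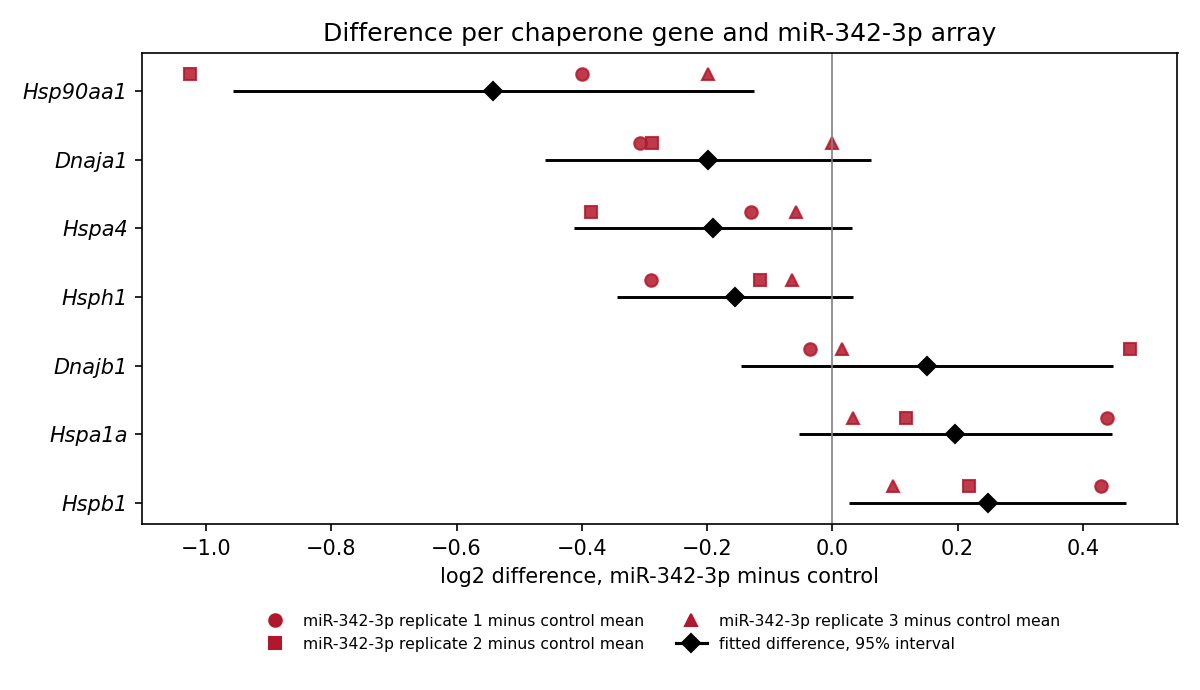
Fitted log2 differences of the 7 members, miR-342-3p minus control (black diamonds), with their 95% intervals, and the change of each miR-342-3p replicate from the control mean (red symbols above the intervals). The intervals of Hsp90aa1 (-0.96 to -0.13) and Hspb1 (0.027 to 0.47) lie on one side of 0 before adjustment over all genes, and those of the other 5 members include it.

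The rest of the chaperone system was described through 7 lists, which hold 82 measured genes in all. Of these, 15 were lower and 2 were higher in miR-342-3p-transfected cells (20.7% called, against 11.6% of all genes). However, 60 of the 82 lay above the median level, where more genes were called. When only genes above that level were fitted, 19 of the 60 were lower and 5 higher. Of all 9969 genes in that fit, 1952 were lower and 1086 higher. The lists were chosen with results of these data known, so nothing particular to them is read from these shares.

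Among 23 measured HSP90 co-chaperones, 6 were lower and 1 was higher, while 16 did not pass the test (median difference -0.16). Over all genes 7.42% were lower and 4.14% higher, with a median of 0.069. All 23 lay above the median level, where the median over 9969 genes was -0.024. When only genes above that level were fitted, 8 of the 23 were lower and 1 was higher. Of the 9969 genes, 1952 were then lower and 1086 higher. Ppid, which encodes cyclophilin 40, a partner of HSP90 in receptor complexes, measured 9.18, 9.15 and 9.53 in the miR-342-3p replicates and 9.87, 9.84 and 9.80 in the controls, so every miR-342-3p array was lower. Its difference was -0.55 (standard error 0.11, FDR = 0.030). Ahsa2, an activator of the HSP90 ATPase, was at -0.56 (FDR = 0.035), Sugt1, a scaffold between HSP90 and immune receptors, at -0.46 (FDR = 0.041) and Chordc1, an HSP90-binding gene induced by heat, at -0.52 (FDR = 0.080). The difference of Hsp90aa1 itself (-0.54) lay in this range, with another order of the arrays: the change was farthest in replicate 2 for Hsp90aa1 (-1.03) and in replicate 1 for Chordc1 (-0.90). The median changes of the co-chaperones were -0.28, -0.081 and -0.14 in replicates 1, 2 and 3.

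Of 6 other heat shock factors and HSF-binding genes, Hsf2 was lower and none was higher (median 0.059). The shares over all genes were 7.42% lower and 4.14% higher, with a median of 0.069. Hsf2, a second heat shock factor that can bind DNA together with HSF1, measured 8.02, 8.42 and 8.58 in the miR-342-3p replicates and 8.85, 8.76 and 8.72 in the controls (difference -0.44, standard error 0.13, FDR = 0.092). Of 8 other HSP70 genes, Hspa14, a ribosome-associated HSP70, was lower (-0.41, FDR = 0.037) and none was higher (median 0.083). Of 22 other J-domain genes, 4 were lower and none higher (median 0.051), namely Dnajc8 (-0.54), a splicing-associated protein, Dnajc9 (-0.37), a histone chaperone, Dnajc27 (-0.28) and Dnajc7 (-0.27), which binds HSP70 and HSP90. Of 9 exchange factors and co-chaperones of HSP70, Bag6 was lower (-0.25, FDR = 0.096) and none was higher (median -0.032). None of 9 other small heat shock genes passed the test in limma (median 0.094). The largest difference among them was that of Hspb7 (0.23, FDR = 0.163).

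The last list held genes outside the members that heat induces, 16 of 18 of them measured, and shared 11 of the 18 with the other lists. Here 4 were lower and 1 was higher, while 11 did not pass the test (median -0.12). Over all genes 7.42% were lower and 4.14% higher, with a median of 0.069. Of the 16 measured, 11 lay above the median level, where the median over all such genes was -0.024. Of the lower genes, Chordc1 and Fkbp4 are also counted among the HSP90 co-chaperones. Mrpl18, a mitochondrial ribosomal protein gene with a cytosolic product under heat stress, measured 10.18, 10.35 and 10.49 in the miR-342-3p replicates and 10.97, 10.99 and 10.93 in the controls (difference -0.62, standard error 0.092, FDR = 0.015). Hspd1, the mitochondrial chaperonin HSP60, was at -0.43 (FDR = 0.057) in the probe set used and at -0.27 (FDR = 0.104) in the one with the highest mean. The gene that rose, Ier5, encodes a factor that activates HSF1, and measured 9.17, 9.67 and 8.99 in the miR-342-3p replicates and 8.76, 8.78 and 8.82 in the controls (difference 0.49, standard error 0.15, FDR = 0.097). Its highest value, like that of Dnajb1, was in replicate 2. Without this replicate the difference of Ier5 was 0.30 (FDR = 0.078), and without replicate 1 the FDR was 0.149.

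**Figure D4:**
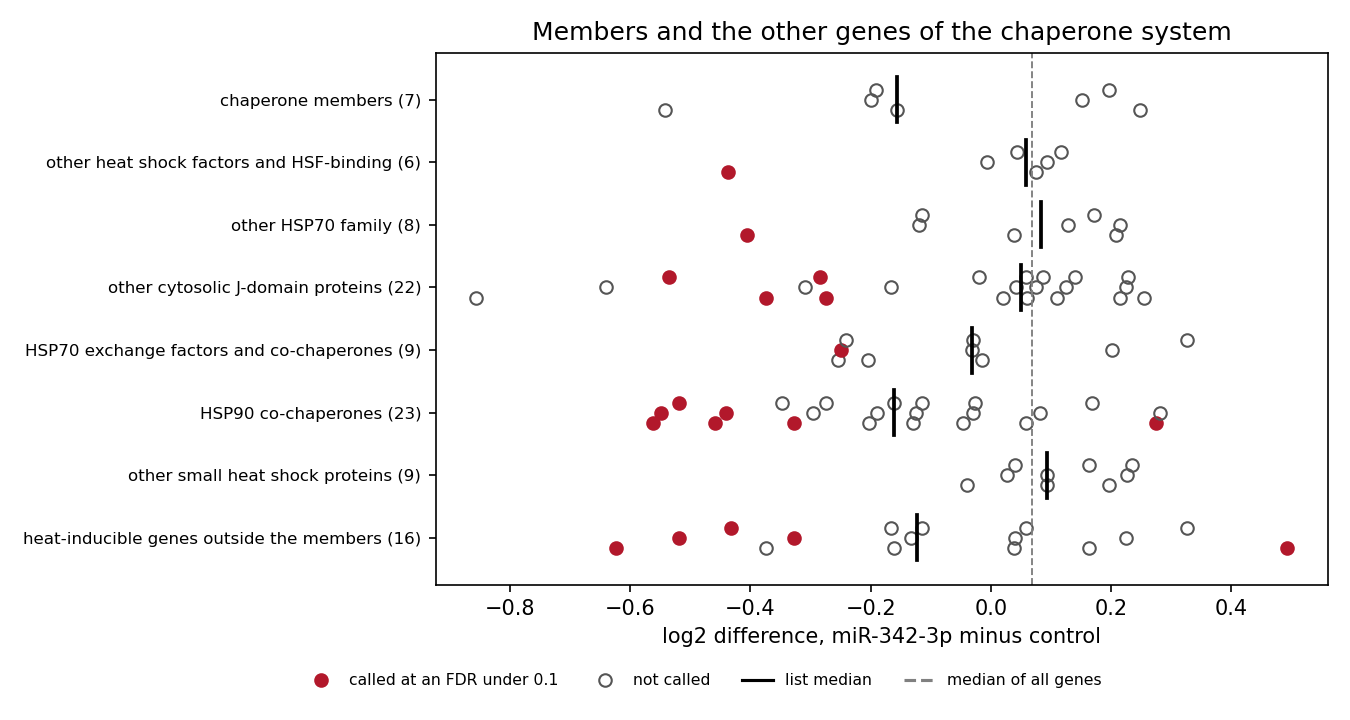
Log2 differences, miR-342-3p minus control, of the measured members and of the genes of the 7 other lists (number measured in parentheses), with filled red circles for genes called at an FDR under 0.1, open circles for the rest, a black line at each list's median and a dashed line at the median of all genes (0.069). No member is called, and 6 of the 7 called HSP90 co-chaperones lie below 0.

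The calls of these lists, like those over all genes, rested on all control arrays. Without any 1 control array, Mrpl18 (FDR between 0.079 and 0.093) was the only one of the 17 called genes that passed. Over all 19938 genes, between 88 and 100 were then higher and between 102 and 140 lower, against 825 and 1479 with all arrays. Without miR-342-3p replicate 1 the number of the 17 was 9 (675 higher and 986 lower over all genes). With each array centered on its median it was also 9 (408 and 1379). It was 6 at an FDR threshold of 0.05 (312 and 661). It was 1 when all probe sets were tested (201 and 314) and 0 with the methods' t-test (26 and 22).

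The 10 measured macrophage markers had means between 7.32 (Adgre1) and 12.58 (Cd68) in miR-342-3p-transfected cells and between 7.49 and 12.68 in controls. Levels of different probe sets cannot be compared as amounts of transcript. These ranges lie above those of the lymphocyte markers but overlap those of the fibroblast and epithelial markers, so the cell type rests on the labels. Of the macrophage markers, Spi1 and Mertk were higher and Fcgr1 and Itgam lower. Markers of fibroblasts and epithelia (9 genes, means between 5.68 and 8.12 in miR-342-3p-transfected cells and between 5.53 and 7.93 in controls) included 1 called gene, Pdgfra (0.49, FDR = 0.031). None of the 7 measured lymphocyte markers passed the test, and the largest difference among them was that of Cd79a (0.38, FDR = 0.116). The control arrays correlated with each other at 0.9982 to 0.9986 and the miR-342-3p arrays at 0.9909 to 0.9926, and replicate 3 lay between the groups on the first principal component.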

How the data were processed

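The scans of the mouse whole-transcript arrays were turned by the authors into log2 values with RMA (version not stated in the sources read), for 35556 probe sets on 6 arrays. The labels gave the groups and replicate numbers. The platform annotation listed 1 gene for 21789 probe sets, several for 1621 and none for 12146. Genes with several probe sets of their own were represented by the one that varied most (interquartile range).

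All 19938 genes were fitted in limma (lmFit and eBayes, version 3.58.1, in R version 4.3.3) without covariates or a filter on level, and called at a Benjamini-Hochberg FDR under 0.1. The choice of probe set and the scaling can change the values. Arrays are described as independent experiments in the legends, and p-values cover the spread between these arrays only. The fit was tested on simulated data. Matplotlib version 3.10.9 drew the figures.

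Members and lists were chosen with earlier results of these data known. All members are named, and from every other list up to 4 called genes with the largest difference, or 1 gene where none was called. Alternatives covered the replicate block, each array left out, the choice of probe set, level filter, scaling, prior, array weights, a plain test named in the methods and the threshold. Hsf1, Hsp90ab1 and 5 genes of the other lists had no usable probe set and were not analysed here.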

Additional observations from a re-analysis of the deposited data

How the results depend on the processing

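Of 124 values of the members under the alternatives, 117 kept their direction and their side of the FDR threshold of 0.1. Hsp90aa1 was called lower in 5 of 18 alternatives, Hspb1 higher in 1 of 17, and Dnajb1 changed sign in 1 of 18. The count of members called lower was 1 in place of 0 when genes below the median level were left out and after centering of each array, Hsp90aa1 in both. Leaving out 1 array gave between 0 and 1 members called higher, between 0 and 1 called lower, and a difference of Dnajb1 between -0.010 (without miR-342-3p replicate 2) and 0.25. The cause of these shifts was not tested.

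Over all genes, 825 were called higher and 1479 lower. Leaving out 1 array gave between 88 and 2104 higher and between 102 and 2422 lower, with the lowest counts without a control array. The methods name limma for these arrays and a t-test for comparisons of groups in general. That t-test after Benjamini-Hochberg adjustment gave 26 higher and 22 lower, and no member at an unadjusted p under 0.05. An FDR threshold of 0.05 gave 312 and 661. Testing all probe sets, an alternative chosen after seeing the data, gave 201 and 314. Other scalings moved the count of higher genes to 408 (centered), 1817 (quantile normalization repeated) and 1342 (cyclic loess, also chosen after seeing the data), and the share of calls that were lower was 77.2%, 43.9% and 55.2%, against 64.2% in the deposited scaling.

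The deviations of miR-342-3p and control arrays with the same replicate number correlated at -0.31, -0.16 and -0.11, so no positive pairing was seen. The labels do not say whether arrays of the same number came from the same experiment. With 3 arrays a group these correlations cannot decide it. With the replicate block, 1 member was called lower (Hsp90aa1, FDR = 0.052). Of the 17 called genes of the other lists, 12 passed with the block. Bag6, Dnajc27, Dnajc7, Fkbp4 and Fnip2 did not (FDR between 0.117 and 0.206), while Dnajc13 (-0.86, FDR = 0.019) and Dnajc21 (-0.64, FDR = 0.039) passed with it and not without.

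With 3 arrays a group, the median width of the members' 95% intervals was 0.50 on the log2 scale.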
